A study of Homo sapiens with 6 samples.

Results

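The proteasome genes were read out as mRNA levels in H1975, a human line of non-small cell lung cancer with mutated EGFR, before and after exposure to osimertinib (Osi), an EGFR tyrosine kinase inhibitor. The set was chosen by symbol and holds all rows named PSMA, PSMB, PSMC, PSMD, PSME or PSMF with a number, except PSMB8 and PSMB9, together with PSMG1 to PSMG4 and POMP. It comprises 47 of the 27216 rows of the expression table, and 45 of these were among the 12656 rows tested, those whose log2(FPKM + 1) was 1 or more on average across the 6 samples. FPKM counts fragments corrected for gene length and library size. PSMA8, an alpha subunit known from the testis, is listed at 0 in all 6 samples, and PSMB11, the catalytic subunit of the thymus, averaged a log2(FPKM + 1) of 0.02 in parental and 0.04 in adapted cells, so neither was tested.

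The study compared 3 parental samples (Osi for 0 h, in columns named for DMSO) with 3 adapted samples (Osi at 1000 nM for 72 h) to learn how tumor cells adapt to the drug. All 6 samples are H1975 cells whose tissue is given as Lung and whose genotype field reads WT. The dose is that of the labels, and a reagent list of the study gives another. The labels and the study's methods also name different culture media. Per the labels, apoptotic cells were washed away with PBS before RNA was taken from the cells that remained, and how many dying cells were left was not measured here. The labels describe an RNase R digestion, which removes linear RNA, whereas the study's methods name total RNA only. Nothing states that the 3 samples of a group came from separate cultures, so p-values measure the spread between these samples. Whether the 0 h cells were kept in DMSO for 72 h is not stated, and time in culture cannot be told apart from the drug.

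The proteasome is the protease that degrades proteins marked with ubiquitin. Its 20S core is a barrel of alpha rings, which gate the entry, and beta rings, which carry the catalytic threonines. The 19S regulatory particle sits on the barrel, with a base of ATPases that unfold the substrate and a lid that removes the ubiquitin chain, and other caps (PSME proteins) can take its place. Dedicated chaperones assemble the core and the base and leave, or are degraded, when the particle is complete.

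The promoters of several of these genes hold an antioxidant response element, the site at which NFE2L1 and NFE2L2 bind together with small MAF proteins, and through which proteasome genes are known to be raised together when the protease is inhibited. The letters TGAC and GCA with any 3 bases between them, the core of that element, were searched on both strands of the RefSeq promoters (GRCh38.p14, 250 bases before to 50 after the start site). Of the 47 genes, 41 matched the table, with 49 promoters. PSMA7, PSMB1, PSMB6, PSMB7, PSMD4 and PSMG3 had no entry. The letters were found in 8 of the 49 promoters (16.3%), each of a different gene, against 3.18% of all 35116 promoters in the table and 2.88% of the 13658 promoters of rows that were tested. The 8 matches are shown because they are the part of these promoters that carries the letters searched. Each is printed 5′ to 3′ on the strand that holds the match, with the match in capitals and up to 10 bases on each side.
PSMA4: gtgggcacgaTGACTCTGCAccgcctcctc
PSMB3: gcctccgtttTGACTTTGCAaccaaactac
PSMC5: agggcggcgcTGACACAGCAgatccggtcg
PSMD1: aggaggcgacTGACTGAGCAg
PSMD3: ccgcacgaTGACGGAGCAgctgcaaacc
PSMD9: gcgcctgtggTGACCCGGCAggagtagcgt
PSMD12: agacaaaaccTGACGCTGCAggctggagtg
PSME4: gctctgctggTGACGCTGCAgccgccgggc

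The windows lie at chr15:78540650-78540679 (plus strand) for PSMA4, chr17:38752627-38752656 (plus) for PSMB3, chr17:63827653-63827682 (minus) for PSMC5 and chr2:231056896-231056916 (plus) for PSMD1. Those of PSMD3, PSMD9, PSMD12 and PSME4 lie at chr17:39980829-39980856 (minus), chr12:121888630-121888659 (minus), chr17:67366723-67366752 (minus) and chr2:53971009-53971038 (plus). The match begins 126 bases before the annotated start site in PSMA4, 104 in PSMB3, 58 in PSMC5, 150 in PSMD9, 165 in PSMD12 and 35 in PSME4. In PSMD1 and PSMD3 it begins 40 and 33 bases after the start site, within the transcript, and the window is cut where the promoter of the table ends. PSMD12 and PSME4 share all letters of the match. Of the 8 genes, PSMD1 and PSMD12 were higher and PSMB3 and PSME4 lower in adapted cells, and PSMA4, PSMC5, PSMD3 and PSMD9 did not pass the test. A match is a description of the letters, and its absence from the other windows says only that these letters are not there. A pair of motifs found in many housekeeping promoters was searched in the same way. CCAAT, the letters of the NF-Y site, was present in 19 of the 49 promoters (38.8%) against 34.6% of all promoters, and CCGGAAG, the core of an ETS site, in 16 (32.7%) against 10.3% of all promoters and 17.7% of those of tested rows.

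Values were compared on the deposited scale, log2(FPKM + 1), with limma across all 12656 rows, and a gene was called higher or lower where the Benjamini-Hochberg adjusted p was under 0.05. Fold changes are on that scale, adapted minus parental. The depth of the libraries is unknown, because the table holds no counts and no steps worth 1 read appear among its low values. FPKM totals per sample were 375342 to 387753, of which mitochondrially encoded genes took 8.07% to 8.66% in parental and 9.73% to 12.2% in adapted samples. Across genes, adapted replicate 1 correlated with the other adapted samples at r = 0.991, while adapted replicates 2 and 3 correlated at 0.996 and the parental samples at 0.997. Calls of members that changed without adapted replicate 1 are therefore given with and without it. Such changes among the other listed genes are mostly not given. All 7 epithelial markers checked were expressed, with a summed FPKM of 3653 to 3681 in parental and 2746 to 2913 in adapted samples. The keratins were called lower, with mean FPKM from 904 to 748 (KRT8), 853 to 579 (KRT18) and 936 to 556 (KRT19). Of the fits that left out 1 sample, only that without adapted replicate 1 kept the KRT8 call (adjusted p = 0.0477 with limma on all samples). EPCAM (193 to 175), CDH1 (175 to 179), EGFR (535 and 535) and MUC1 (67.3 to 75.8) were not called. CDH1 passed the threshold without adapted replicate 1, at a log2 fold change of 0.20. Of 4 leukocyte markers CD68 alone reached the expression limit, at 73.8 to 76.3 FPKM summed over the list in parental and 14.6 to 29.6 in adapted samples, while CD3E was at 0 in all samples and PTPRC at 0 in the parental ones. Of 5 fibroblast markers COL1A1 alone reached it, with 3.04 to 3.16 FPKM summed over the list in parental and 7.65 to 9.21 in adapted samples, and the log2 fold change of COL1A1 was 1.12 (adjusted p = 7.8e-05 with limma). Of 3 endothelial markers none reached it, with sums of 1.13 to 1.86 and 1.42 to 3.47 FPKM. Within that sum the mean of PECAM1 went from 1.35 to 0.06 FPKM, that of CDH5 from 0.16 to 2.39 and that of VWF from 0.02 to 0.18. The part of these shifts in the results below was not tested. In bulk RNA, fewer cells that express a gene and less of its RNA per cell cannot be told apart.

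Of the 45 proteasome genes tested, 6 were higher and 11 lower in adapted cells and 28 did not pass the test. The 17 calls are 37.8% of the members, where 56.9% of all tested rows were called (30.7% higher and 26.2% lower). The higher genes were PSMB10, PSMC1, PSMC2, PSMD1, PSMD12 and PSME1, and the lower genes were PSMA2, PSMB3, PSMB7, PSMD14, PSMD5, PSMD10, PSME2, PSME4, PSMG1, PSMG2 and PSMG4. Changes were small: the log2 fold changes ran from -0.56 (PSMA2) to 0.45 (PSMB10), their median size was 0.18 against 0.31 over all rows, and 1 member passed a size of 0.5, which 30.6% of all rows did. The median of the members was -0.08 beside 0.03 over all rows, with 16 members above 0 and 29 below. In 20 of the 45 members the groups did not overlap, against 66.3% of all rows. The calls for PSMC2, PSMD1 and PSME1 (higher) and PSMD14, PSMD5, PSME4, PSMG1 and PSMG2 (lower), 8 of the 17, were kept in each of the 6 fits that left out 1 sample.

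**Figure D1:**
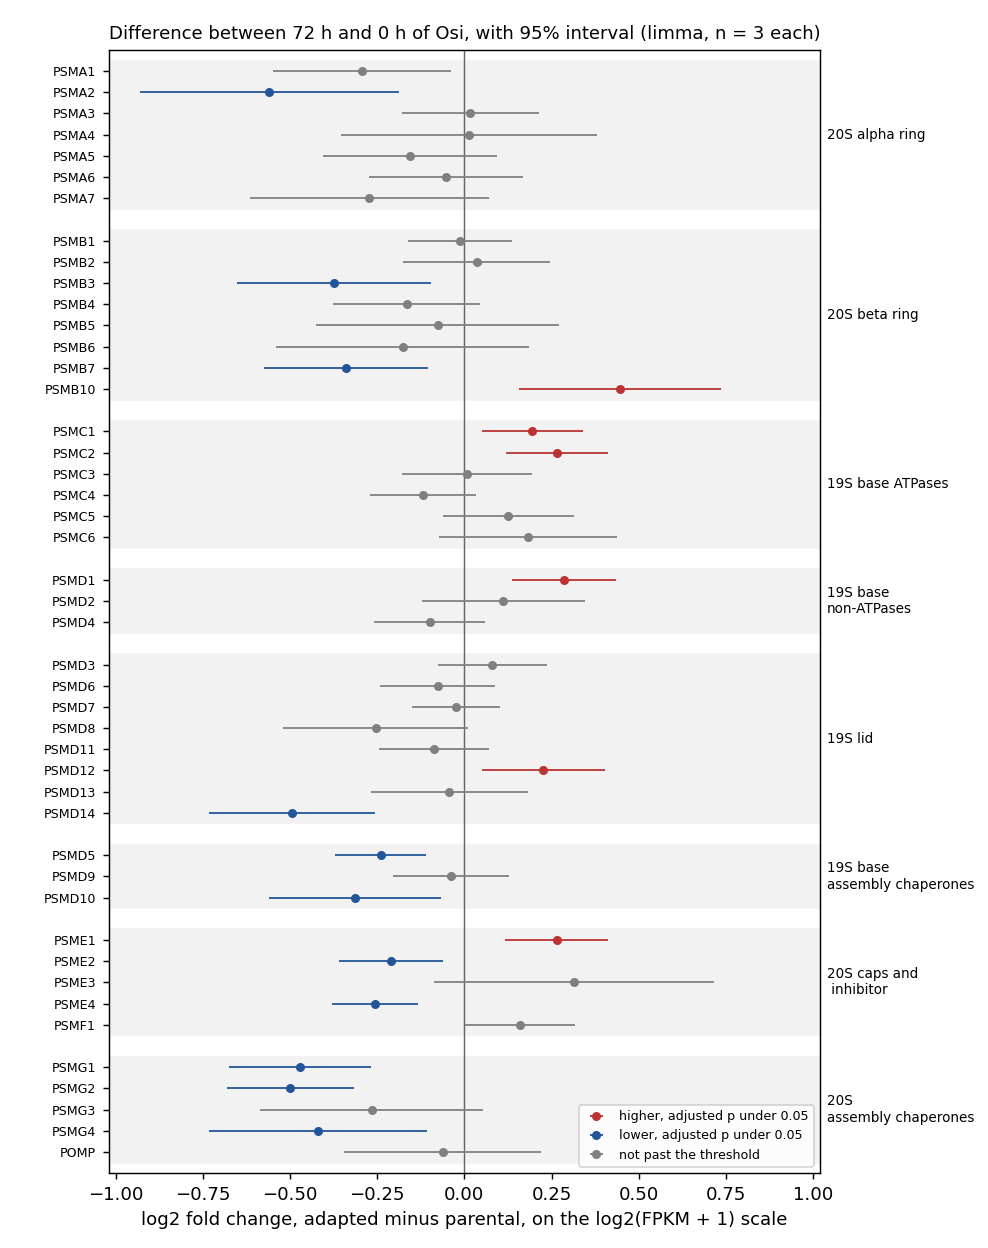
Log2 fold change of each of the 45 tested proteasome genes, adapted minus parental, on the log2(FPKM + 1) scale (horizontal axis), with the 95% interval of the limma fit as bars and the genes grouped by role. Red genes were higher (6), blue genes lower (11) and grey genes not past the threshold (28). All assembly chaperones shown lie left of 0, and the base ATPases and non-ATPases shown lie mostly right of 0.

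The calls were also counted by role. Of the 15 core subunits tested, 1 was higher and 3 lower (median -0.16). Of the 17 subunits of the 19S particle in the set, 4 were higher and 1 lower (median 0.01). Of the 8 assembly chaperones in the set, none was higher and 5 were lower (median -0.29). The 9 genes of the 19S base in the set held 3 higher and no lower call, with a median of 0.13. Outside the set by symbol are ADRM1 of the base, SEM1 of the lid and PAAF1, a chaperone of the base. Of these, ADRM1 and PAAF1 were higher and SEM1 lower, and they are counted below with the bound partners. Called in either direction were 26.7% of the core subunits, 29.4% of the 19S subunits, 33.3% of the base and 62.5% of the assembly chaperones. Over all tested rows 56.9% were called, with 30.7% higher and 26.2% lower. The counts, shares and medians are of genes that work in the same particle, and differences between the roles were not tested.

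Of the 7 alpha subunits tested, which form the outer rings and the gate of the core, 1 was lower and none higher, with a median log2 fold change of -0.16. PSMA2, one of the ring's 7 different subunits, was 6.50, 6.47 and 6.54 in parental replicates 1 to 3 and 6.21, 6.07 and 5.55 in adapted replicates 1 to 3. All adapted values lay below all parental values, and adapted replicate 3 lay far below the others. PSMA2 fell by 0.56 on the log2 scale (standard error 0.16, limma, adjusted p = 0.019), the largest size of change among the members. The call was lost without parental replicate 1 (adjusted p = 0.0541) and without parental replicate 3 (0.0592), at log2 fold changes of -0.56 and -0.54. In GENCODE v29 (GRCh38), PSMA2 (chromosome 7, 42916857 to 42932223, minus strand) shares exon bases with MRPL32 on the opposite strand and with other annotated genes, and the strand setting of the counting is not given. PSMA1 did not overlap between groups either, at 6.14, 6.08 and 6.11 against 6.01, 5.87 and 5.57, and missed the threshold (log2 fold change -0.29, limma, adjusted p = 0.0509). PSMA1 was past it after rescaling to an equal sum (0.0482), after median centring (0.0392) and without adapted replicate 1 (-0.39, 0.00579). The remaining 5 subunits, PSMA3 to PSMA7, had log2 fold changes between -0.27 and 0.02 and overlapped between groups. PSMA4 spread widely within the parental group, at 5.17, 5.56 and 5.79, and its 95% interval of -0.35 to 0.38 is among the widest of the set.

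Of the 8 beta subunits tested, 1 was higher and 2 lower, with a median log2 fold change of -0.12. PSMB5, PSMB6 and PSMB7 carry the chymotrypsin-like, caspase-like and trypsin-like activities of the constitutive core. PSMB5, the main target of bortezomib, was 6.71, 6.83 and 6.88 in parental and 7.09, 6.53 and 6.57 in adapted samples. Adapted replicate 1 lay above the parental range and the other adapted samples below it, so that the difference of -0.08 had a 95% interval of -0.42 to 0.27 (limma, adjusted p = 0.68). PSMB6 had the same arrangement, at 7.07, 7.08 and 7.09 against 7.24, 6.90 and 6.57, and a difference of -0.18 with an interval of -0.54 to 0.19 (limma, adjusted p = 0.358). Without adapted replicate 1 both were called lower, with log2 fold changes of -0.26 for PSMB5 (adjusted p = 0.00807) and -0.35 for PSMB6 (adjusted p = 0.0143). PSMB7 was 7.21, 7.21 and 7.24 in parental and 7.11, 6.81 and 6.73 in adapted samples. The groups did not overlap, and adapted replicate 1 lay nearest to the parental values. PSMB7 fell by 0.34 on the log2 scale (standard error 0.10, limma, adjusted p = 0.023).

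PSMB3, a structural subunit of the ring, was 7.63, 7.68 and 7.66 in parental and 7.56, 7.17 and 7.11 in adapted samples. Its adapted replicate 1 also lay close to the parental values without overlap. PSMB3 fell by 0.37 on the log2 scale (standard error 0.12, limma, adjusted p = 0.0298). Neither call held when most of the single samples were left out. Of the 6 fits that left out 1 sample, the fit without adapted replicate 1 kept them, at -0.51 (PSMB3) and -0.45 (PSMB7), and in the other 5 fits the adjusted p was 0.0707 to 0.0950 for PSMB3 and 0.0611 to 0.0731 for PSMB7, with log2 fold changes of -0.39 to -0.29 and -0.34 to -0.26. The structural subunits PSMB1, PSMB2 and PSMB4 had log2 fold changes of -0.01, 0.04 and -0.17 and overlapped between groups.

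PSMB10 takes the place of PSMB7 in the immunoproteasome, the form of the core that is induced by interferon gamma and that trims peptides for MHC class I. It was 5.23, 5.08 and 5.19 in parental and 5.89, 5.56 and 5.40 in adapted samples. Every adapted value lay above every parental value, with adapted replicate 1 the highest. PSMB10 rose by 0.45 on the log2 scale (standard error 0.12, limma, adjusted p = 0.0171), the largest rise among the members. The call was lost without parental replicate 2 (0.40, adjusted p = 0.0637). In GENCODE v29, PSMB10 shares exon bases with AC040162.1 on the same strand, so that reads could be shared. An exon overlap with another gene, on either strand, is annotated for 21 members. In FPKM, which allows a comparison between genes, PSMB10 stood at 23.6% of PSMB7 in parental (SD 1.27, n = 3) and at 41.1% in adapted samples (SD 1.72, n = 3). The log2 ratio of PSMB10 to PSMB7 was -2.01, -2.16 and -2.08 in parental and -1.23, -1.27 and -1.35 in adapted samples. The adapted ratios were closer to each other than the single genes were, and the shift of 0.80 was beyond the spread of both groups (exact two-sided permutation test, p = 0.1, the lowest value possible with 3 samples a group, adjusted p = 0.15 over 3 pairs). The shift was between 0.76 and 0.84 when any 1 sample was left out. Because PSMB10 was higher and PSMB7 lower in every adapted sample, this ratio had to separate the groups. The p-value of the ratio therefore adds no support to the results of the single genes.

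PSMB8 and PSMB9, the immunoproteasome counterparts of PSMB5 and PSMB6, are not members of the set. PSMB8 was 6.04, 6.07 and 6.07 against 6.03, 6.05 and 5.90 (log2 fold change -0.07, limma, adjusted p = 0.402), and PSMB9 fell from 4.93, 4.95 and 4.98 to 4.62, 4.30 and 4.22 (-0.57, adjusted p = 0.00279). The immunoproteasome subunits thus moved in different directions, with PSMB10 higher, PSMB9 lower and PSMB8 not past the test. The log2 ratio of PSMB9 to PSMB6 went from -2.16 ± 0.01 to -2.58 ± 0.15 (SD, n = 3 each, exact two-sided permutation test, p = 0.1, adjusted 0.15) and that of PSMB8 to PSMB5 from -0.76 ± 0.07 to -0.74 ± 0.30 (exact p = 0.9).

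**Figure D2:**
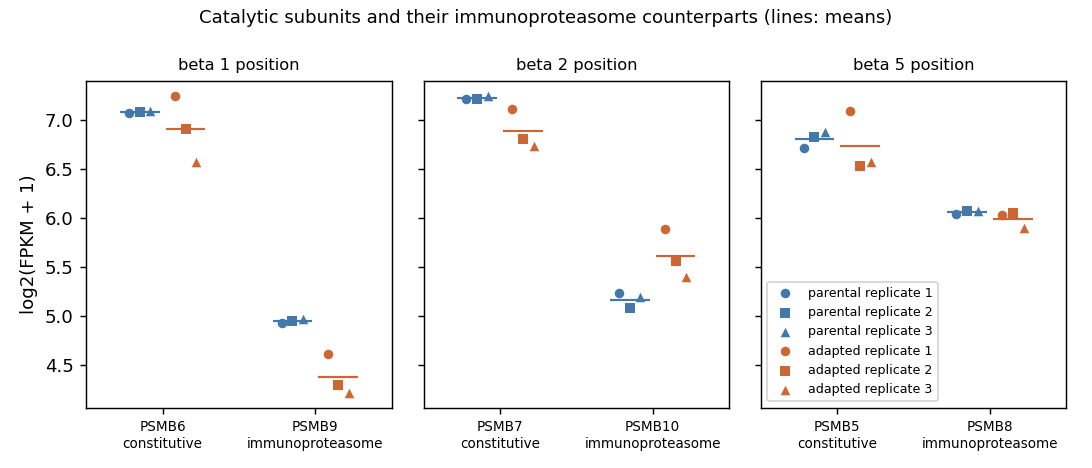
Log2(FPKM + 1) in each sample (points) with group means (lines) for the constitutive catalytic subunits PSMB6, PSMB7 and PSMB5 and the immunoproteasome subunit that replaces each, parental in blue and adapted in orange. PSMB7 lies lower and PSMB10 higher in all 3 adapted samples, while the adapted values of PSMB5 and PSMB6 spread to both sides of the parental ones.

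The 6 base ATPases (PSMC1 to PSMC6) form the ring that pulls substrates into the core. Of these, 2 were higher and none lower, and the median log2 fold change was 0.15. PSMC2 was 5.16, 5.20 and 5.22 in parental and 5.50, 5.51 and 5.37 in adapted samples. The groups were apart by more than the spread of either. PSMC2 rose by 0.27 on the log2 scale (standard error 0.06, limma, adjusted p = 0.00862) and by 0.24 to 0.31 in the fits that left out 1 sample, each past the threshold. PSMC1 was 4.78, 4.74 and 4.75 against 4.99, 5.0 and 4.86. All adapted values were higher, and PSMC1 rose by 0.19 on the log2 scale (standard error 0.06, limma, adjusted p = 0.0298). This call was lost without any one of parental replicates 1, 2 and 3 (adjusted p 0.0721, 0.105 and 0.0974) or adapted replicate 2 (0.0759), at log2 fold changes of 0.17 to 0.21, and with the replicate number as a block (0.0603). PSMC1 also has near copies of at least 95% identity over 300 bases in the pseudogenes PSMC1P1 and PSMC1P9, with which reads could be shared. PSMC4 was lower, by a narrow margin without overlap (5.80, 5.79 and 5.81 against 5.79, 5.60 and 5.66) but not past the threshold (-0.12, limma, adjusted p = 0.151), except without adapted replicate 1 (-0.17, 0.0133). PSMC3, PSMC5 and PSMC6 had log2 fold changes of 0.01, 0.13 and 0.18 and overlapped between groups.

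In the set, PSMD1, PSMD2 and PSMD4 are the base subunits that are not ATPases, and 1 of the 3 was higher. ADRM1, a base subunit outside the set, is given below. PSMD1, a large scaffold that docks ubiquitin receptors, was 5.39, 5.47 and 5.48 in parental and 5.77, 5.78 and 5.64 in adapted samples. All adapted samples were higher by more than the spread within the groups. PSMD1 rose by 0.29 on the log2 scale (standard error 0.06, limma, adjusted p = 0.00699), and by 0.26 to 0.33 when 1 sample was left out, past the threshold each time. Its promoter is among the 8 with the response element letters, and an exon overlaps HTR2B on the opposite strand. PSMD2, which holds the deubiquitinase USP14 and shuttle factors, was 6.64, 6.68 and 6.60 against 6.97, 6.69 and 6.59. Adapted replicate 1 was high and the others lay at the ends of the parental range (difference 0.11, 95% interval -0.12 to 0.34, limma, adjusted p = 0.363). PSMD4, the ubiquitin receptor also known as Rpn10, was 6.50, 6.53 and 6.53 against 6.53, 6.40 and 6.33. Here adapted replicate 1 lay at the upper end of the parental range and the others below it (difference -0.10, interval -0.26 to 0.06, limma, adjusted p = 0.246). PSMD4 was called lower without adapted replicate 1 (-0.15, adjusted p = 0.0235), and it has a near copy in PIPSL.

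The 8 lid subunits in the set held 1 higher and 1 lower call, with a median of -0.06. SEM1, a lid subunit outside the set, fell by 0.45 (limma, adjusted p = 0.00332). PSMD14, the metalloprotease (Rpn11) that cuts the ubiquitin chain from the substrate, was 5.78, 5.80 and 5.85 in parental and 5.50, 5.36 and 5.10 in adapted samples. All adapted samples were below the parental range, adapted replicate 3 the furthest. PSMD14 fell by 0.49 on the log2 scale (standard error 0.10, limma, adjusted p = 0.00492), or from 55.2 to 39.2 FPKM, and the call held in each fit that left out 1 sample, at -0.58 to -0.38. PSMD12, a scaffold of the lid, was 3.92, 3.82 and 3.85 against 4.17, 4.13 and 3.96. The groups did not overlap, though adapted replicate 3 came close to parental replicate 1. PSMD12 rose by 0.23 on the log2 scale (standard error 0.08, limma, adjusted p = 0.0357) and kept the call in 1 of the 6 fits that left out a sample, that without adapted replicate 3 (0.29, adjusted p = 0.0113). In the other 5 fits, without any one of the parental samples or of adapted replicates 1 and 2, the adjusted p was 0.0504 to 0.122. PSMD8 was 6.60, 6.70 and 6.70 against 6.67, 6.23 and 6.34 (-0.25, adjusted p = 0.0907) and was called lower only without adapted replicate 1 (-0.38, 0.00107). PSMD3, PSMD6, PSMD7, PSMD11 and PSMD13 had log2 fold changes of -0.09 to 0.08, of which PSMD6 was called lower without adapted replicate 1 (-0.14, 0.0303).

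The base is assembled with PSMD5, PSMD9 and PSMD10 (gankyrin), chaperones that each hold a pair of ATPases, and 2 of the 3 were lower. PAAF1, a further chaperone of the base that is not in the set, rose by 0.32 (limma, adjusted p = 0.0158). Its call was lost without parental replicate 2 and without parental replicate 3. PSMD5 was 4.84, 4.78 and 4.79 in parental and 4.60, 4.57 and 4.53 in adapted samples. The values of both groups were tight and apart. PSMD5 fell by 0.24 on the log2 scale (standard error 0.06, limma, adjusted p = 0.00811), and the call held in each fit that left out 1 sample. PSMD10 was 5.85, 5.83 and 5.82 against 5.74, 5.50 and 5.32, so that the adapted samples were all lower and spread more widely than the parental ones. PSMD10 fell by 0.31 on the log2 scale (standard error 0.11, limma, adjusted p = 0.0371). It kept this call only without adapted replicate 1 (-0.42, 0.000923), with an adjusted p of 0.0760 to 0.0993 in the 5 other fits. PSMD9 overlapped between groups, with a log2 fold change of -0.04.

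The caps bind the ends of the core in place of the 19S particle, and of the 5 genes for caps and an inhibitor 1 was higher and 2 lower. PSME1 and PSME2 form the heptameric ring PA28 alpha beta, which is induced by interferon gamma. PSME1 was 7.03, 7.02 and 6.99 in parental and 7.20, 7.36 and 7.27 in adapted samples. PSME2 was 6.60, 6.64 and 6.63 against 6.33, 6.51 and 6.41. In neither gene did the groups overlap, and the partners of this one complex moved in opposite directions. PSME1 rose by 0.27 on the log2 scale (standard error 0.06, limma, adjusted p = 0.00922) and was called in each fit that left out 1 sample. PSME2 fell by 0.21 (standard error 0.06, limma, adjusted p = 0.025), and lost its call without any one of parental replicates 1, 2 and 3 (adjusted p 0.0687, 0.0924 and 0.0826, log2 fold changes -0.22 to -0.20), after quantile normalization (-0.17, 0.0590), after rescaling that left out mitochondrially encoded genes (-0.16, 0.0763) and with the replicate number as a block (0.0514). The genes lie 4394 bases apart on chromosome 14 in GENCODE v29. PSME2 has near copies in PSME2P2, PSME2P6 and 1 other annotated gene, and overlaps RNF31 on the opposite strand. PSME1 overlaps EMC9 on the opposite strand.

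PSME3, the nuclear cap PA28 gamma, was 6.47, 5.95 and 5.93 in parental and 6.36, 6.24 and 6.69 in adapted samples. Parental replicate 1 lay well above the other parental samples and inside the adapted range. The difference of 0.31 had a 95% interval of -0.09 to 0.72 (limma, adjusted p = 0.153) and was past the threshold without parental replicate 1 (0.49, adjusted p = 0.0284). PSME4, the cap PA200, was 4.71, 4.76 and 4.72 against 4.46, 4.48 and 4.48, with every adapted sample lower and the smallest spread of the called genes. PSME4 fell by 0.26 on the log2 scale (standard error 0.05, limma, adjusted p = 0.00498) and kept the call in each fit that left out 1 sample. PSMF1, an inhibitor of the core known as PI31, was 5.14, 5.07 and 5.08 against 5.24, 5.17 and 5.36. All adapted values were higher, but the difference of 0.16 was not past the threshold (limma, adjusted p = 0.0777) except without adapted replicate 2 (0.21, 0.0426) and after that same rescaling (0.21, 0.0429).

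The chaperones that build the 20S core were the role with the lowest median, -0.42, with 3 of 5 genes lower and none higher. These calls are 60% of the role, near the 56.9% of all tested rows that were called (26.2% lower). PSMG1 and PSMG2 form a dimer that holds the alpha ring together while it assembles. PSMG2 was 4.32, 4.45 and 4.41 in parental and 4.02, 3.80 and 3.85 in adapted samples. PSMG1 was 3.80, 3.77 and 3.55 against 3.25, 3.31 and 3.16. All adapted values of both genes lay below all parental values. PSMG2 fell by 0.50 (standard error 0.08, limma, adjusted p = 0.00137, the lowest among the members) and PSMG1 by 0.47 (standard error 0.09, adjusted p = 0.00294), or from 20.0 to 13.9 and from 12.1 to 8.45 FPKM. Both calls held in each fit that left out 1 sample, at -0.56 to -0.45 and -0.55 to -0.42. PSMG2 shares exon bases with CEP76 and SPIRE1 on the opposite strand.

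PSMG3 and PSMG4 form the companion dimer. PSMG4, the lowest expressed of the tested members (7.05 FPKM in parental and 5.08 in adapted cells), was 2.98, 2.99 and 3.06 against 2.88, 2.34 and 2.54. The groups did not overlap, with adapted replicate 1 close to the parental values. PSMG4 fell by 0.42 on the log2 scale (standard error 0.13, limma, adjusted p = 0.0296) and kept the call only without adapted replicate 1 (-0.57, 0.000653), with an adjusted p of 0.0697 to 0.0911 in the 5 other fits. It was also lost without the filter on low values, as were those of PSMB3 and PSMD10. PSMG3 was 4.26, 4.46 and 4.60 against 4.31, 4.31 and 3.90 and overlapped (-0.27, limma, adjusted p = 0.133). POMP, the chaperone under which the beta ring forms and which the finished core degrades, was 4.94, 4.98 and 4.93 against 5.08, 4.98 and 4.60. Of its adapted samples, replicate 1 lay above the parental range, replicate 2 at its upper end and replicate 3 below it (difference -0.06, 95% interval -0.34 to 0.22, limma, adjusted p = 0.682).

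**Figure D3:**
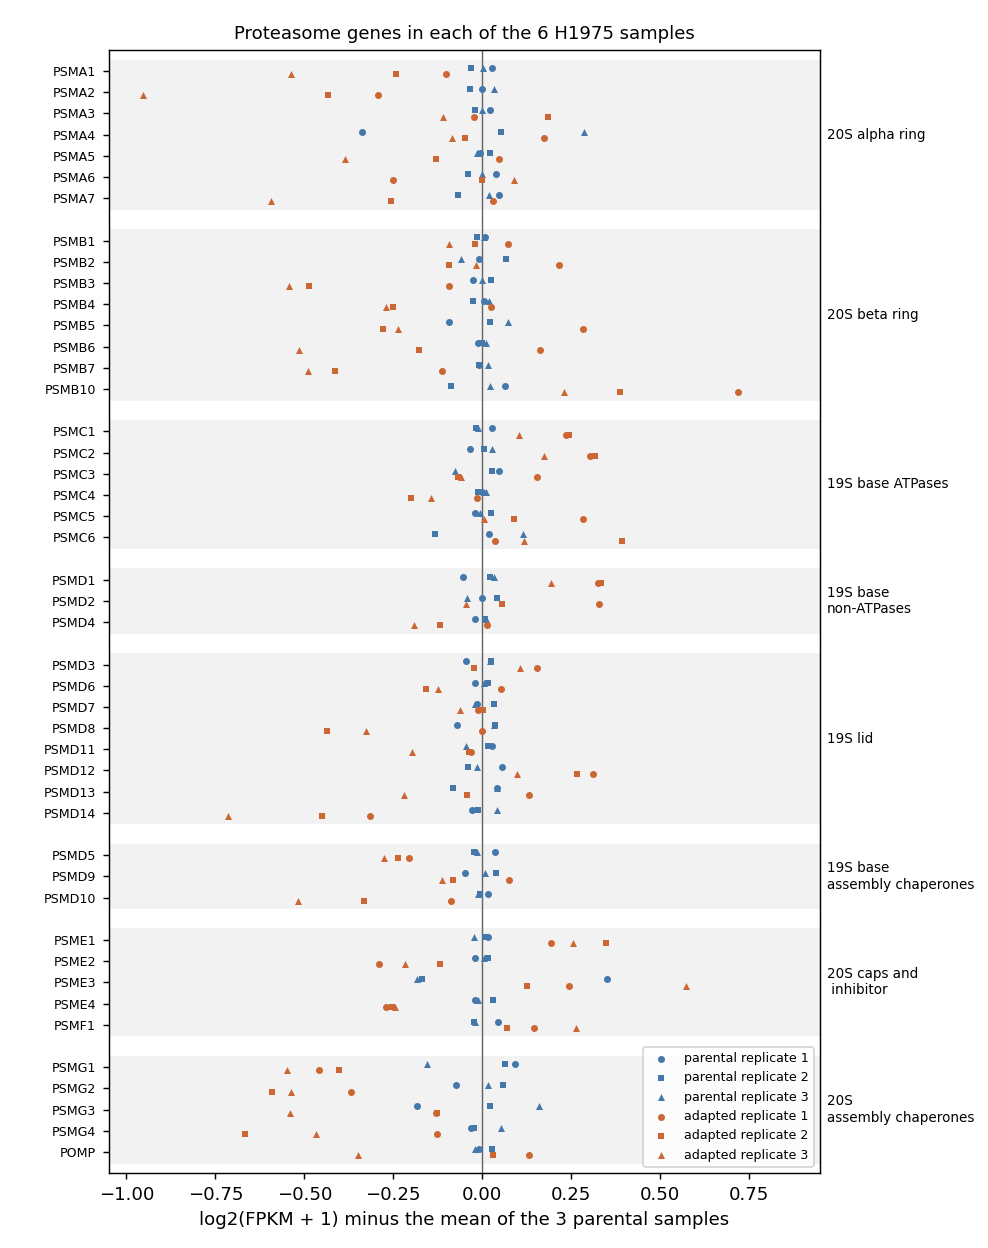
Each of the 45 tested proteasome genes in each of the 6 samples, as log2(FPKM + 1) minus the mean of the 3 parental samples (horizontal axis), with parental samples in blue and adapted samples in orange, and a symbol for each replicate number. Parental points lie close to 0 except for PSMA4, PSMC6, PSME3, PSMG1 and PSMG3, and adapted replicate 1 (orange circles) is the rightmost adapted point in 31 genes.

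The adapted samples were not alike in these genes. Adapted replicate 1 was the highest of the 3 in 31 of 45 members (68.9%) and in 13 of the 15 core subunits, where it was the highest in 39.6% of all rows, and adapted replicate 3 was the lowest in 29 members. Relative to the parental mean, the median of the core subunits was 0.03 in adapted replicate 1, -0.18 in replicate 2 and -0.27 in replicate 3. The 19S subunits lay at 0.13, -0.02 and -0.06 and the core chaperones at -0.13, -0.40 and -0.54, while the median over all rows was 0.03, 0.04 and 0.02. The median of the core chaperones was thus below the parental mean in each adapted sample, and that of the core subunits in adapted replicates 2 and 3. Of the 5 core chaperones, 4, 4 and 5 were below their parental means in adapted replicates 1, 2 and 3. Without adapted replicate 1, 5 members were higher and 21 lower, and 9 core subunits were lower in place of 3. These 26 calls were 57.8% of the members, where 66.1% of all rows were called in the same fit. The 10 genes that gained a call were PSMA1, PSMA5, PSMA7, PSMB4, PSMB5, PSMB6, PSMC4, PSMD4, PSMD6 and PSMD8, all lower, and PSMD12 lost its call. Among the core subunits, PSMA5 went from -0.16 to -0.26 without adapted replicate 1 (limma, adjusted p = 0.0221), PSMA7 from -0.27 to -0.42 (0.00737) and PSMB4 from -0.17 to -0.26 (0.00204).

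**Figure D4:**
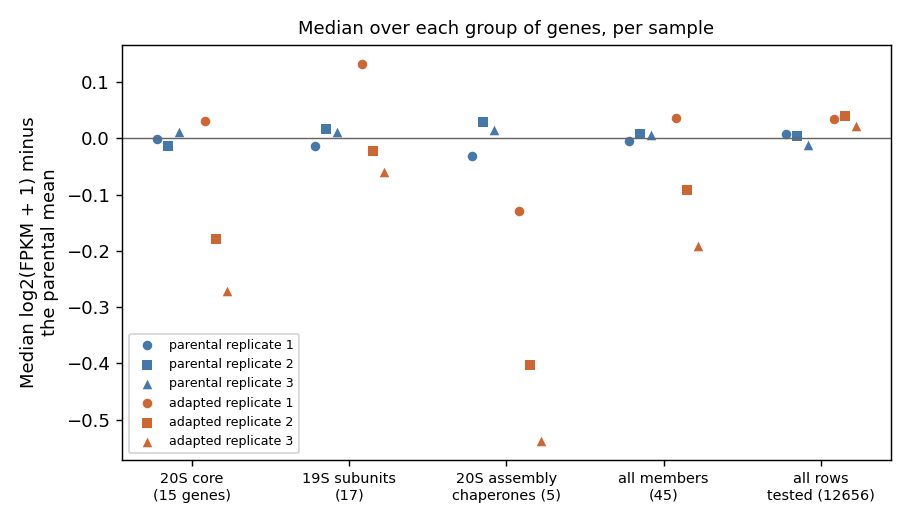
Median over the genes of each role of log2(FPKM + 1) minus the parental mean, per sample, with parental samples in blue and adapted samples in orange, beside the same over all members and all tested rows. Adapted replicates 1 to 3 spread from 0.03 to -0.27 for the core and from -0.13 to -0.54 for the core chaperones, and lie at 0.02 to 0.04 over all rows.

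In FPKM, the 14 constitutive core subunits summed to 1558, 1553 and 1590 in parental and 1557, 1351 and 1243 in adapted samples, a mean 11.7% lower. Adapted replicate 1 was inside the parental range and the others were below it. The 17 subunits of the 19S particle in the set summed to 929.5 ± 8.2 in parental and 930.3 ± 68.9 in adapted samples (SD, n = 3 each). The means were alike and the adapted samples spread more. The 5 core chaperones summed to 86.5, 91.9 and 90.9 against 81.7, 75.3 and 63.3, a mean 18.2% lower, with no overlap between groups. These sums describe mRNA and weight the abundant genes most.

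Subunits that are present in equal numbers in the particle were not equal in mRNA. Among the constitutive core subunits the parental mean ran from 28.2 FPKM (PSMA5) to 201 FPKM (PSMB3), and among the 19S subunits from 13.5 (PSMD12) to 101 (PSMD8). The order was largely the same in adapted cells, where the ends of the core were 25.4 FPKM (PSMA5) and 173 FPKM (PSMA6). Across genes, the log2 FPKM of parental and adapted cells correlated at r = 0.982 for the 14 core subunits and 0.966 for the 17 subunits of the 19S particle, which describes genes measured in the same libraries and carries no test. At the upper end of the core, PSMB3 (201 ± 3.7 FPKM), PSMA6 (179 ± 5.1) and PSMB4 (178 ± 2.9) led in parental cells, and the latter pair did not differ beyond their spread. At the upper end of the 19S particle PSMD8 (101 ± 4.2) and PSMD2 (98.7 ± 3.0) did not either. PSMD14 went from 55.2 ± 1.4 to 39.2 ± 5.5 FPKM and PSMA2 from 89.6 ± 2.1 to 61.6 ± 14.1.

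**Figure D5:**
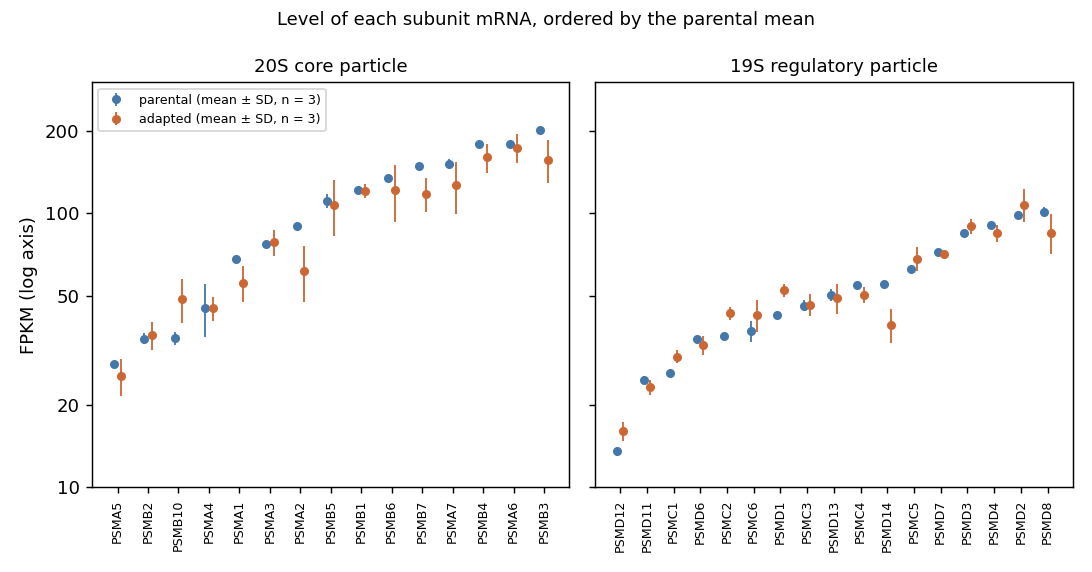
Mean FPKM of each core (left) and 19S (right) subunit on a log axis with its SD (bars, n = 3 per group), ordered by the parental mean, parental in blue and adapted in orange. Parental means span 28.2 to 201 FPKM over the constitutive core and 13.5 to 101 over the 19S subunits shown. The pairs of points lie furthest apart for PSMA2, PSMD14, PSMB10, PSMB3 and PSMB7, the subunits shown whose log2 fold changes were at least 0.3 in size.

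Genes that work with the proteasome were read in the same fit. Of 32 genes for bound partners, ubiquitin shuttles, ubiquitin and its activation, and transcriptional control, all tested, 10 were higher and 12 lower, with a median of -0.02 and a median size of 0.32 beside 0.31 over all rows. These 22 are 68.8% of the list beside 56.9% of all rows. Among the 13 bound partners 4 were higher (ADRM1, PITHD1, PAAF1 and UBLCP1) and 5 lower (SEM1, UCHL5, ECPAS, ZFAND5 and AKIRIN2). ADRM1, the ubiquitin receptor Rpn13, was 6.32, 6.33 and 6.32 in parental and 6.60, 6.49 and 6.51 in adapted samples and rose by 0.21 (limma, adjusted p = 0.016). UCHL5, the deubiquitinase that ADRM1 recruits and activates, was 4.52, 4.54 and 4.62 against 4.0, 3.69 and 4.16 and fell by 0.61 (adjusted p = 0.00344). Receptor and enzyme thus moved in opposite directions, without overlap between groups in either. USP14, the other deubiquitinase of the 19S particle, was 4.13, 4.12 and 4.09 against 4.32, 4.26 and 4.0 and overlapped (0.08, adjusted p = 0.47), and was past the threshold only without adapted replicate 3 (0.18, 0.0446). The call of ADRM1 was lost without any one of the parental samples (adjusted p 0.0602 to 0.0628, log2 fold change 0.21 in each).

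Among the 9 shuttles and unfoldase genes, VCP, NPLOC4 and UFD1 were higher, and RAD23B and UBQLN1 were among those that were lower. RAD23B, a shuttle that carries ubiquitinated proteins to the proteasome, was 6.49, 6.50 and 6.51 in parental and 5.91, 5.79 and 5.81 in adapted samples and fell by 0.67 (limma, adjusted p = 9.7e-05). VCP (p97), the ATPase that extracts ubiquitinated proteins from complexes and membranes, was 6.16, 6.20 and 6.13 against 6.95, 6.83 and 6.67 and rose by 0.65 (adjusted p = 0.000409). Its adaptor NPLOC4 was 4.86, 4.91 and 4.88 against 5.37, 5.43 and 5.37 and rose by 0.51 (adjusted p = 0.000212). For all 3 genes the distance between groups was several times the spread within them, and the calls held in each fit that left out 1 sample.

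Among the genes for ubiquitin and its E1 enzymes, UBA1 was among those that were higher, and RPS27A and UBA6 were among those that were lower. UBB, a polyubiquitin gene, was 8.36, 8.41 and 8.39 in parental and 8.77, 8.41 and 8.61 in adapted samples (log2 fold change 0.21, limma, adjusted p = 0.102), and was past the threshold without adapted replicate 2 (0.30, 0.0181), after quantile normalization (0.26, 0.0309) and after rescaling that left out mitochondrial genes (0.26, 0.0461). RPS27A, which encodes ubiquitin fused to a ribosomal protein, was 8.74, 8.89 and 8.89 against 8.51, 8.37 and 7.72 and fell by 0.64 (adjusted p = 0.0247). Its adapted replicate 3 lay far below the rest, and the call was lost without any one of parental replicates 1, 2 and 3 (adjusted p 0.0502, 0.0739 and 0.0730, log2 fold changes -0.69, -0.62 and -0.62).

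Of the 4 transcriptional control genes 1 was higher and 1 lower. NFE2L1, the factor that raises proteasome genes through the element shown above, was 6.19, 6.20 and 6.20 in parental and 6.37, 6.39 and 6.57 in adapted samples and rose by 0.25 (limma, adjusted p = 0.0177), a call that was lost without any one of the parental samples (adjusted p 0.0587 to 0.0626, log2 fold change 0.24 to 0.25). NFE2L2, which binds the same element and is the main factor of the antioxidant response, was 6.51, 6.54 and 6.49 against 6.20, 5.98 and 6.10 and fell by 0.42 (adjusted p = 0.00194), past the threshold in each fit that left out 1 sample. The mRNAs of the 2 factors thus moved in opposite directions, without overlap between groups. These are mRNA levels, and NFE2L1 is known to be controlled mainly by processing and turnover of the protein.

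For comparison, 2 other complexes with a fixed number of subunits were read in the same fit. Of the 10 subunits of the COP9 signalosome, which resembles the lid, 2 were higher (GPS1 and COPS7A) and 3 lower (COPS2, COPS3 and COPS6), with log2 fold changes of -0.40 to 0.33 and a median of -0.16. Of the 8 subunits of the CCT chaperonin, 2 were higher (CCT2 and CCT6A) and 3 lower (CCT4, CCT7 and CCT8), with log2 fold changes of -0.55 to 0.37 and a median of -0.07. These are 5 of 10 and 5 of 8 genes, beside 37.8% of the proteasome genes and 56.9% of all rows, and no difference between the complexes was tested.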

How the data were processed

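RNA was measured in 3 parental and 3 adapted samples of H1975 cells. A single table of log2 values was deposited, and its DMSO and OSI columns were matched by group and number to the 0 h and 72 h samples. The unit was inferred: undoing log2(value + 1) leaves numbers of 6 decimals except in 147 rows (none a member or listed gene), with totals typical of FPKM. The submitters' processing notes name hg38, Bowtie2 2.1.0, STAR and edgeR without a role. The count-based test of the study's methods could not be run, so limma 3.58.1 (R 4.3.3; lmFit, eBayes with an intensity trend) was run, unpaired, on all rows with a mean of at least 1, with Benjamini-Hochberg adjustment. It was tested on simulated data in which few rows changed, each by more than any member did, so smaller changes were not covered. Summaries and motif searches used Python 3.11.15, and near copies came from blastn 2.17.0 on GENCODE v29 transcripts. The promoters are those of RefSeq.

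Members and lists were chosen with earlier results of these data known. Values in every sample were given for the catalytic subunits, ubiquitin receptors, PSMD14, caps, inhibitor and POMP, for up to 2 members per role that rose and 2 that fell most without overlap, and for NFE2L1, ADRM1, UCHL5, USP14, UBB and the 3 pathway genes that rose and fell most. A few genes of the pathway list are counted over the whole list but not reported here by name. PSMA1, PSMA4, PSMC4, PSMD8, PSMG3, PSMG4, NFE2L2 and the fold changes of SEM1 and PAAF1 were added after their values were seen. Genes of the pathway, COP9 and CCT lists named without values were named for their calls. Intervals and p-values rest on the spread between samples, since depth is unknown.

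Alternatives tried were log2(FPKM + 0.1), no filter, a filter at a mean of 3, quantile normalization, median centring, rescaling to an equal sum with and without mitochondrially encoded genes, eBayes without a trend or robust, the replicate number as a block, other thresholds, rows left out, and each sample left out.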

Additional observations from a re-analysis of the deposited data

How the results depend on the processing

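Of the members, 6 were higher and 11 lower. When 1 sample was left out, 3 to 6 were higher (3 without parental replicate 2) and 5 to 21 lower (5 without parental replicate 1 or 3, 21 without adapted replicate 1), and 5 to 11 and 10 to 14 of the pathway genes were higher and lower, against 10 and 12. In those fits 20.0% to 57.8% of the members and 45.5% to 66.1% of all rows were called. At an adjusted p under 0.01, 3 members were higher and 5 lower, and 5 pathway genes higher. With a size of at least 0.5 added to the threshold of 0.05, 0 members were higher and 1 lower, and 3 pathway genes were higher and 3 lower. The cause was not tested beyond the smaller number of samples or the stricter limit. The median over the members ran from -0.14 to -0.01 when 1 sample was left out. Samples with the same number did not deviate together (r of -0.051, -0.031 and -0.020), so the samples were not taken as paired, and with a replicate block 5 members were higher and 10 lower and 10 and 11 pathway genes.

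Reversals of sign were confined to 11 members that passed the threshold neither as reported nor in the fit with the other sign. Median centring gave -0.0026 for PSMA3, -0.0058 for PSMA4 and -0.011 for PSMC3, and rescaling without mitochondrial genes, under which the median over all rows was 0.07 in place of 0.03, gave 0.035 for PSMB1, 0.024 for PSMD7, 0.0044 for PSMD13 and 0.0065 for PSMD9. With 1 sample left out, log2 fold changes ran from -0.067 to 0.081 (PSMA3), -0.16 to 0.16 (PSMA4), -0.12 to 0.046 (PSMA6), -0.057 to 0.027 (PSMB1), -0.055 to 0.099 (PSMB2), -0.26 to 0.024 (PSMB5), -0.065 to 0.047 (PSMC3), -0.13 to 0.045 (PSMD13) and -0.16 to 0.081 (POMP). With the other pseudocount, the other variance models, or without off-grid or NewGene rows, all 55 genes compared kept direction and side of the threshold, as did the 54 left by the filter at 3. With no filter on low values 51 did, and PSMB3, PSMD10, PSMG4 and RPS27A missed it (adjusted p 0.0573 to 0.0660). The depth is unknown, so counting error could not be given.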
